A study of Mus musculus with 7 samples.

Results

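The 8 genes described here encode enzymes of glycolysis and gluconeogenesis and were chosen by name from the 32285 genes of the series. They are the hexokinase gene Hk2, the aldolase gene Aldoa, the pyruvate kinase genes Pkm and Pklr, the lactate dehydrogenase gene Ldha, and the gluconeogenic genes Pck1, Fbp1 and G6pc. The question was how these genes were used by the cells of the hepatocyte lineage in each of 7 mouse liver libraries, and whether Pkm or Pklr was the larger part of pyruvate kinase in them. Cells of the hepatocyte lineage were set by marker genes and numbered 7448 of 72640 analysed cells, and 5 of the 7 libraries held at least 20 of them.

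Glycolysis splits glucose into pyruvate, and gluconeogenesis runs the route backwards with its own enzymes at the irreversible steps. The adult hepatocyte makes glucose for the rest of the body. It carries the liver form of pyruvate kinase (Pklr). Pyruvate carboxylase (Pcx), the cytosolic phosphoenolpyruvate carboxykinase (Pck1), fructose-1,6-bisphosphatase (Fbp1) and the glucose-6-phosphatase catalytic subunit (G6pc) carry the return path. Fetal liver and many tumors use hexokinase 2 (Hk2). They share aldolase A (Aldoa) and the pyruvate kinase of muscle and proliferating cells (Pkm) with most other tissues. Lactate dehydrogenase A (Ldha) interconverts pyruvate and lactate.

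The study built ABC-Myc mice, in which an albumin enhancer/promoter drives Cre in hepatocytes (Alb-Cre) and Cre opens a CAG-driven human MYC transgene (CAG-MYC), on a C57BL/6J background. Its normal controls were littermates lacking 1 or both transgenes, so a control may still carry Alb-Cre or the closed MYC cassette. Livers were digested with collagenase and captured on 10x Genomics 3' gene expression chips. GEO's labels give all 7 libraries the same entry, a murine hepatoblastoma model, with no group, age or replicate number, and the entry for NEJ709 carries the name NEJ634 in its description. The study's text describes its single-cell set as tumors and healthy livers and calls NEJ634, NEJ723, NEJ709 and NEJ687 tumors, which would leave NEJ638, NEJ654 and NEJ677 as the healthy livers, although the labels do not say so. Since the labels hold no groups, every value below belongs to 1 library, no group was averaged or tested, and intervals are 95% intervals that cover counting error only. Differences between libraries were therefore not set against the spread between mice.

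Libraries held 40214395 to 132485391 UMIs (unique molecular identifiers, each standing for 1 captured RNA molecule). Between 138 and 338 kept cells a library had a barcode that was also a cell of another library. Of the 45001 barcodes that gave the free RNA (RNA outside cells) of a library, 840 (NEJ634) to 13310 (NEJ677) were cells elsewhere. The hepatocyte-lineage-like cells were 5308 in NEJ634, 280 in NEJ687, 335 in NEJ638, 573 in NEJ654 and 933 in NEJ677, against 10 in NEJ709 and 9 in NEJ723. In NEJ709, 92.7% of the analysed cells sat in clusters that the fixed markers did not name. All 12 lineage markers, albumin and other plasma protein genes, were present in each of the 5 libraries, with a summed level of 25293 to 121749 counts per 1e+06 UMIs (CPM). Genes of fetal liver and hepatoblastoma (Afp, Igf2, H19, Dlk1 and Gpc3) summed to 10786 CPM in NEJ634 and 12820 in NEJ687, and to 268.8 in NEJ638, 9.98 in NEJ654 and 7.41 in NEJ677. Gpc3 did not follow the sum, with 20.3 CPM in NEJ638 (15.3 to 26.5) against 3.01 in NEJ634 and 2.45 in NEJ687. Genes of the adult hepatocyte (Cyp2e1, Cyp3a11, Mup3, Cps1, Ass1 and Serpina1c) went the other way, with 2758 and 3381 CPM in NEJ634 and NEJ687 against 13800 to 14676 in the other 3, although Cps1 alone was at 785.0 CPM in NEJ677 and overlapped the 782.1 of NEJ634 and the 747.6 of NEJ687. The shared label thus covers hepatocyte-lineage-like cells of 2 kinds, with Afp, Igf2, H19 and Dlk1 highest in NEJ634 and NEJ687.

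All 8 genes matched a promoter in RefSeq's mouse annotation (GRCm38.p6), in 13 windows of 300 bases that run from 250 bases before a start site to 50 after it. Of 4 motifs searched on both strands, the E-box CACGTG, the sequence that Myc-Max dimers bind, is held by 7.15% of the 32851 promoters in the table, and the shorter ACGTG, which each E-box also contains on both strands, by 19.6%. The TATA box TATAAA is held by 13.6% and the GC box GGGCGG by 35.7%. Among the 8 genes, CACGTG occurs only in the Ldha window at chr7:46845554-46845853 (plus strand), where it starts 145 and 48 bases before the start site. ACGTG occurs in that window, in the Hk2 window at chr6:82774405-82774704 (minus strand) and in the Pkm window at chr9:59656977-59657276 (plus strand). It also occurs in 2 of the Aldoa windows, which overlap and hold the same ACGTG site. GGGCGG occurs in windows of 6 of the 8 genes, Hk2, Aldoa, Pkm, Ldha, Pck1 and Fbp1. The shares above are per window, and some genes have several windows, so counts of genes cannot be set against them. TATAAA occurs in the windows of 2 liver genes, Pklr at chr3:89136373-89136672 (plus strand) and G6pc at chr11:101367466-101367765 (plus strand). The 5 windows are shown because they hold one of these motifs, so they say nothing of how the motifs divide the genes. The remaining Ldha, Pkm and Pklr windows, the third Aldoa window and those of Pck1 and Fbp1 hold neither ACGTG nor TATAAA. Each is printed from 5' to 3' on the gene's strand, with the match in capitals (CACGTG in Ldha, ACGTG in Hk2 and Pkm, where it lies on the opposite strand and so reads CACGT, and TATAAA in Pklr and G6pc). A match says only that these letters are present.
Ldha: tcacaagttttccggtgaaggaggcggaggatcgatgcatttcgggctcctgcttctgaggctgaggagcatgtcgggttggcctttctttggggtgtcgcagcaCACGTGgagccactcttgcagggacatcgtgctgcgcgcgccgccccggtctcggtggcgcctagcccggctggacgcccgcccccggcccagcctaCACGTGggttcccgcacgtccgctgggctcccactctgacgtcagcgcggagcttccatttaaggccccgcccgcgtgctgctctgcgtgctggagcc
Hk2: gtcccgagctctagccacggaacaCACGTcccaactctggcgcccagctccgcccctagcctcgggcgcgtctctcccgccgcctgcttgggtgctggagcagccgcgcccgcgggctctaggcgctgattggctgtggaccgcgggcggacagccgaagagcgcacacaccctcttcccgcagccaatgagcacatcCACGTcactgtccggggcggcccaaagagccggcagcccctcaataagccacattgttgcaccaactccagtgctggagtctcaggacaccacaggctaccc
Pkm: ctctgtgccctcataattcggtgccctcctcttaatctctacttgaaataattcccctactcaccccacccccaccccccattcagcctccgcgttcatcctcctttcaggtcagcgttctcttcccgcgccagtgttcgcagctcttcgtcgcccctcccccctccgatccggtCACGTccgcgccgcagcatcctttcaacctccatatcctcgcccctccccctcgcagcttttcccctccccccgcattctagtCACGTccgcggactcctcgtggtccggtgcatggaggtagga
Pklr: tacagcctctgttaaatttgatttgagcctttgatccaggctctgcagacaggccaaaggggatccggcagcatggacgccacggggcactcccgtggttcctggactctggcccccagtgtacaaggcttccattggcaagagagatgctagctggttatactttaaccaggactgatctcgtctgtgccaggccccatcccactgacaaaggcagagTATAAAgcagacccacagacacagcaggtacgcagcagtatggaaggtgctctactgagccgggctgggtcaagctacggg
G6pc: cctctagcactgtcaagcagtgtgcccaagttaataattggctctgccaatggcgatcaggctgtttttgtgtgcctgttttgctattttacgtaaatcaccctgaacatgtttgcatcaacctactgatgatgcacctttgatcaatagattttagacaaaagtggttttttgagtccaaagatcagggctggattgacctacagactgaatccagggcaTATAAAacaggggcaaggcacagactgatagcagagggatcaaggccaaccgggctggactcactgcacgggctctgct

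Hexokinases catalyse the entry step, and Hk2 was higher in NEJ687 and NEJ634 than in the other 3 libraries. Hk2 (chr6:82725025-82774454, minus strand, GRCm38) was at 26.5 CPM in NEJ687 (119 UMIs, interval 21.9 to 31.7), 21.0 in NEJ634 (488 UMIs, 19.2 to 23.0), 4.49 in NEJ654 (9 UMIs, 2.05 to 8.53), 2.07 in NEJ677 (7 UMIs, 0.834 to 4.27) and 0.752 in NEJ638 (2 UMIs, 0.0911 to 2.72). Intervals of the upper pair overlapped each other, as did those of the lower 3, and the pair and the trio did not overlap. The highest library stood 35.2-fold above the lowest, with an interval of 9.54 to 294.1 since the lowest held 2 UMIs. Of the other hexokinases described, Hk1, the form of most tissues, and Hk3, a form of myeloid cells, were at 10.3 and 7.11 CPM in NEJ634 and at 3.49 CPM or below in the other 4 libraries.

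Aldolase cleaves fructose-1,6-bisphosphate, and Aldoa showed the same division of libraries at higher depth. Aldoa (chr7:126795234-126800751, minus strand) was at 417.2 CPM in NEJ687 (398.5 to 436.5), 355.5 in NEJ634 (347.9 to 363.3), 77.0 in NEJ677 (67.9 to 87.0), 55.9 in NEJ654 (46.0 to 67.3) and 53.0 in NEJ638 (44.6 to 62.5). The first 3 differed from each other beyond their intervals, while NEJ654 and NEJ638 overlapped. A second annotated entry of the same symbol, ENSMUSG00000114515, lies next to it at chr7:126800790-126809108 and held 1 UMI in NEJ634 and 0 elsewhere. Aldoa varied 7.87-fold from the highest to the lowest library (6.63 to 9.41). Aldoc, the brain aldolase, was between 5.47 and 18.4 CPM, highest in NEJ677.

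Pyruvate kinase catalyses the last step, and its 2 genes lay on opposite sides in the 2 sets of libraries. Pkm (chr9:59656368-59679375, plus strand) was at 93.9 CPM in NEJ634 (89.99 to 97.9), 90.8 in NEJ687 (82.2 to 100.03), 22.5 in NEJ654 (16.4 to 30.1), 15.4 in NEJ638 (11.1 to 20.9) and 4.15 in NEJ677 (14 UMIs, 2.27 to 6.96). NEJ634 and NEJ687 overlapped, NEJ654 and NEJ638 overlapped below them, and NEJ677 was lowest beyond its interval. Pklr (chr3:89136142-89146784, plus strand) was at 66.1 CPM in NEJ677 (57.7 to 75.3), 50.4 in NEJ654 (41.1 to 61.3), 42.9 in NEJ638 (35.4 to 51.5), 8.83 in NEJ634 (7.66 to 10.1) and 5.12 in NEJ687 (23 UMIs, 3.24 to 7.68). NEJ677, NEJ654 and NEJ638 each overlapped the next, as did NEJ634 and NEJ687 by a narrow margin, and the 2 sets did not overlap.

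Pkm held 94.7% of the UMIs of Pkm and Pklr in NEJ687 (92.1 to 96.6) and 91.4% in NEJ634 (90.2 to 92.5), but 30.8% in NEJ654 (23.5 to 39.0), 26.5% in NEJ638 (19.7 to 34.1) and 5.91% in NEJ677 (3.27 to 9.71). Pkm was thus the larger part in 2 of 5 libraries. The share of NEJ677 was 11.7% without doublet removal and 11.02% averaged over cells, and that of NEJ654 45.6% averaged over cells. Its spliced forms M1 and M2 share the counted end of the transcript and cannot be told apart here. In the small pools, Pkm held 36 of 40 UMIs of the pair in the 10 cells of NEJ709 (76.3 to 97.2%) and 8 of 11 in the 9 cells of NEJ723 (39.03 to 93.98%). Those 10 cells had a median of 50300.5 UMIs, against 2435 over the kept cells of NEJ709. With every cell thinned to 500 UMIs, 1 of the 5308 cells of NEJ634 and none of the other 4 pools held both Pkm and Pklr. At that depth 291 cells of NEJ634 held Pkm alone and 27 held Pklr alone, against 5 and 27 in NEJ677 and 2 and 11 in NEJ638. Most cells held neither gene (4989 of 5308 in NEJ634), so these counts cannot show whether single cells used 1 gene or both. Transcripts of 2 genes may be captured unequally, so these shares compare libraries better than they compare the genes.

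**Figure D1:**
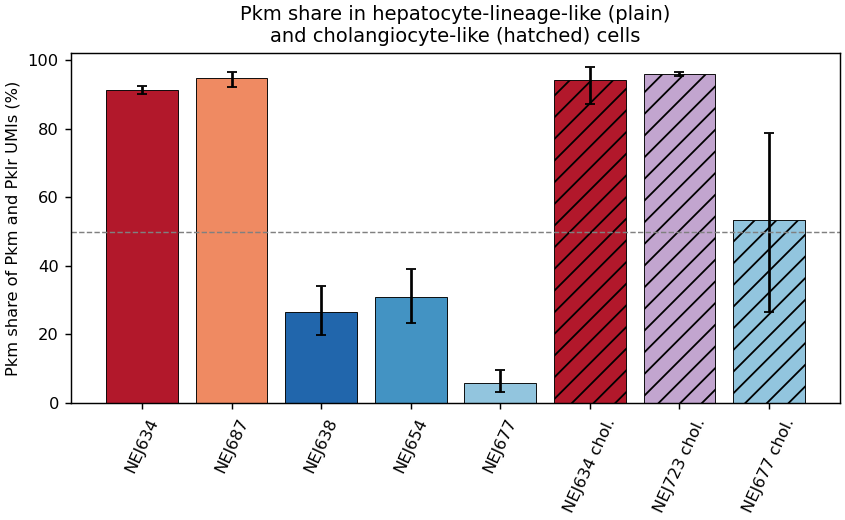
Share in percent that Pkm held of the UMIs of Pkm and Pklr, as bars with 95% Clopper-Pearson intervals, in hepatocyte-lineage-like cells of 5 libraries (plain) and in cholangiocyte-like cells, cells with bile duct markers, of the 3 libraries with at least 20 of them (hatched). The cholangiocyte-like cells of NEJ634 and NEJ723 also held Afp, at 7057 and 2067 CPM. The dashed line marks equal parts; Pkm held 91.4% and 94.7% in NEJ634 and NEJ687 and at most 30.8%, with UMIs summed over cells, in the plain bars of the other 3 libraries.

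Pkm is abundant in myeloid cells, and markers of those cells were also present in the hepatocyte-lineage-like pools. All 8 neutrophil markers were found in NEJ634 and 7 of 8 in NEJ687, summing to 5238 and 1327 CPM, against 21.6 to 71.1 in the other 3 libraries. All 8 macrophage markers were found in each of the 5, at 869.7 CPM in NEJ634, 809.2 in NEJ654, 223.9 in NEJ677, 183.8 in NEJ687 and 54.9 in NEJ638. At the ratio of Pkm to marker UMIs seen in the neutrophil-like cells of the same library, the neutrophil markers would carry 14.4 CPM of the 93.9 CPM of Pkm in NEJ634 and 3.53 of the 90.8 in NEJ687. The macrophage markers would carry 23.5 and 4.17 CPM in the same pools, 5.60 of 22.5 in NEJ654, 1.49 of 4.15 in NEJ677 and 0.947 of 15.4 in NEJ638. The monocyte markers would carry 66.1 CPM in NEJ634, 46.1 in NEJ687 and 56.0, 110.6 and 37.7, all more than the level measured, in NEJ654, NEJ638 and NEJ677, but most of their UMIs in these pools were Fn1 (fibronectin), which hepatocytes also make, at 195 to 639.2 CPM. Without Fn1, a choice made after seeing the data, the monocyte markers would carry 39.9 of the 93.9 CPM in NEJ634, 10.1 of 90.8 in NEJ687, 4.40 of 22.5 in NEJ654, 1.88 of 4.15 in NEJ677 and 0.992 of 15.4 in NEJ638. Endothelial markers would carry 16.3 CPM in NEJ634, 7.48 in NEJ687, 7.95 in NEJ654, 9.48 of 15.4 in NEJ638 and 2.11 of 4.15 in NEJ677. These estimates stand each on its own and are not a sum, and the part of such RNA in the Pkm and Hk2 levels was not tested. For Hk2, the monocyte markers without Fn1 would carry 5.39 of 21.0 CPM in NEJ634 and 0.671 of 26.5 in NEJ687, and the macrophage markers 3.94 and 0.469. In the 3 libraries with little Hk2, the macrophage markers would carry 3.85 of 4.49 CPM in NEJ654, 1.43 of 2.07 in NEJ677 and 0.346 of 0.752 in NEJ638. Conventional dendritic markers would carry 1.85 CPM in NEJ654, 1.04 in NEJ677 and 0.996 in NEJ638, the last more than the level measured. After subtraction of free RNA at the largest share that the markers allowed (7.48% in NEJ634), Pkm stood at 83.7 CPM in NEJ634, 89.3 in NEJ687, 21.5 in NEJ654, 12.7 in NEJ638 and 4.15 in NEJ677. The free RNA subtracted included barcodes that were cells of another library.

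Ldha (chr7:46841475-46855627, plus strand) was the most evenly spread of the glycolytic members. Its level was 1767 CPM in NEJ687 (1728 to 1806), 1206 in NEJ634 (1192 to 1220), 598.0 in NEJ654 (564.6 to 632.9), 546.5 in NEJ677 (521.9 to 572.0) and 512.1 in NEJ638 (485.2 to 540.0). NEJ687 and NEJ634 were again highest, apart from each other and from the rest, and the lower 3 overlapped with their neighbours. The range of 3.45-fold (3.26 to 3.66) was narrower than that of Hk2, Aldoa or Pkm. Ldhb, the heart subunit, was at 5.13 CPM or below in every library.

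**Figure D2:**
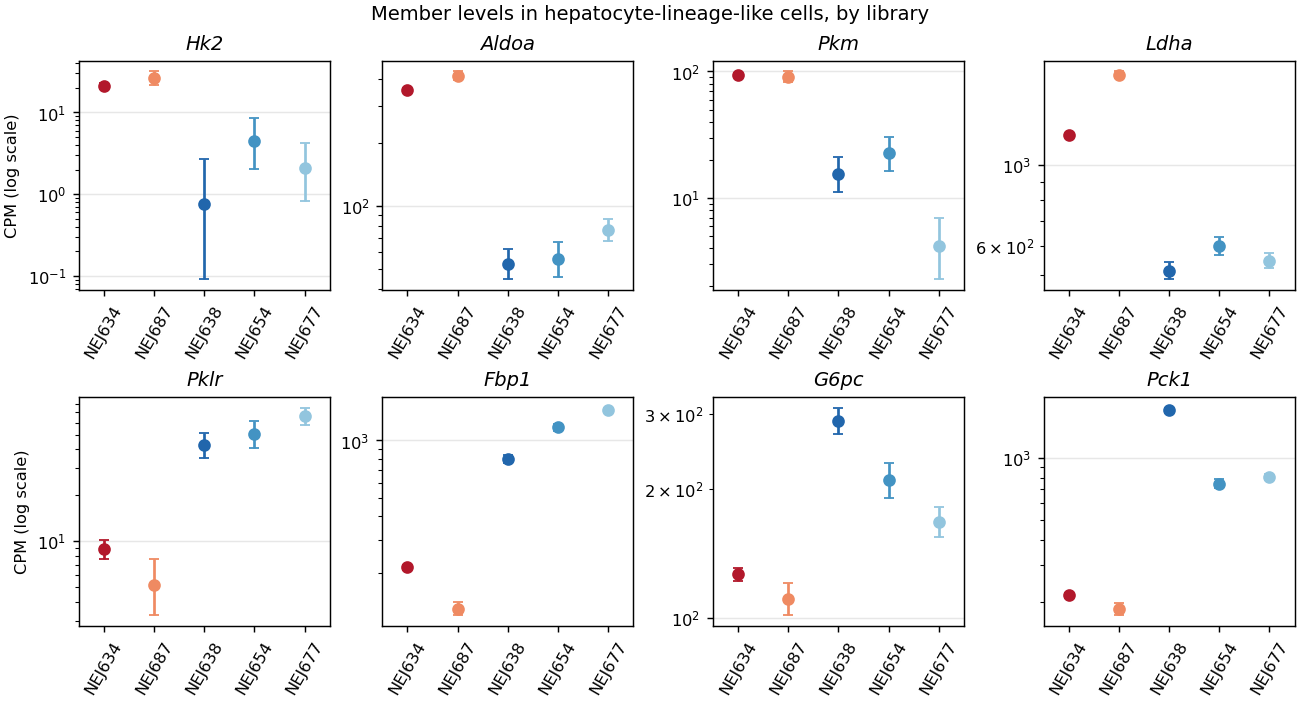
Level in CPM, on a log axis, of the 8 genes in hepatocyte-lineage-like cells, 1 point per library with its exact 95% Poisson interval. Hk2, Aldoa, Pkm and Ldha are highest in NEJ634 and NEJ687, and Pklr, Pck1, Fbp1 and G6pc are lowest there.

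The gluconeogenic genes lay on the other side. Pck1 (chr2:173153048-173159273, plus strand), which commits oxaloacetate to glucose, was at 1696 CPM in NEJ638 (1647 to 1747), 804.2 in NEJ677 (774.2 to 835.0), 747.3 in NEJ654 (709.9 to 786.1), 215.3 in NEJ634 (209.4 to 221.3) and 183.8 in NEJ687 (171.5 to 196.8). Only NEJ677 and NEJ654 overlapped, and NEJ638 stood well above both. Fbp1 (chr13:62864753-62888282, minus strand), which removes a phosphate from fructose-1,6-bisphosphate, was at 1450 CPM in NEJ677 (1410 to 1491), 1171 in NEJ654 (1124 to 1219), 798.6 in NEJ638 (765.0 to 833.3), 214.5 in NEJ634 (208.6 to 220.5) and 129.7 in NEJ687 (119.4 to 140.7). All 5 libraries differed from their neighbours beyond the intervals. Over whole pools, the order within the upper trio was therefore reversed between Pck1 and Fbp1 for NEJ638 and NEJ677. For Fbp1 this order depended on the mix of clusters given below.

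G6pc (chr11:101367561-101377903, plus strand), which frees glucose in the endoplasmic reticulum, was at 289.9 CPM in NEJ638 (269.8 to 311.1), 210.2 in NEJ654 (190.6 to 231.2), 168.0 in NEJ677 (154.4 to 182.4), 126.4 in NEJ634 (121.9 to 131.1) and 110.8 in NEJ687 (101.3 to 121.0). Its 2.62-fold range (2.33 to 2.93) was the smallest of the 8, against 9.23-fold (8.57 to 9.95) for Pck1 and 11.2-fold (10.3 to 12.2) for Fbp1. The remaining isozymes were low. Pck2, the mitochondrial form of the carboxykinase, was between 3.85 and 13.8 CPM, highest in NEJ634. Fbp2, the muscle form, was at 1.78 CPM or below, and G6pc3, a widely expressed phosphatase, was between 2.07 and 8.57 CPM, also highest in NEJ634.

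With UMIs summed over cells, the intervals of NEJ634 and NEJ687 did not overlap those of NEJ638, NEJ654 and NEJ677 for any of the 8 genes. The values kept this division under all 13 alternatives for 7 genes and for the Pkm share, and under 12 for G6pc, which lost it with levels averaged over cells. Leaving out haemoglobin and mitochondrial UMIs could not change the Pkm share, which does not use the total. No alternative compared libraries within 1 cluster. In cluster 6 alone, Pck1 of NEJ634 was at 1039 CPM against 600.9 to 1710 in NEJ638, NEJ654 and NEJ677. G6pc was at 270.2 against 261.4 to 395.5, so neither divided NEJ634 from them. Hk2, Aldoa, Pkm, Ldha, Pklr and Fbp1 kept their side there, though the Hk2 and Pkm intervals overlapped those of NEJ654. All 8 reached 10 CPM in at least 1 library, and 6 of 8 had a highest library at least 4-fold above the lowest, the exceptions being Ldha and G6pc. Among all 9116 genes at that level, the share with such a range was 32.1%, given as a description since the 8 genes were picked with results in view. The median range was 10.2-fold over the 8 genes and 2.80-fold over all genes. Among the 47 pathway genes described, of which 36 reached 10 CPM, 17 had a 4-fold range, with 8 of 15 glycolysis enzymes, 2 of 6 gluconeogenesis enzymes, 5 of 9 regulators and 2 of 6 transporters. The list counts include the members themselves. Hk2, Aldoa, Pkm and Pklr are among those glycolysis enzymes, and Pck1 and Fbp1 are the 2 gluconeogenesis enzymes. The lists therefore give no separate support for the members' ranges.

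Beyond the 8 genes and the other isozymes of their families, the widest glycolysis enzymes among those that reached 10 CPM were Pfkp, the platelet phosphofructokinase (27.4 CPM in NEJ687, 17.8 in NEJ634, 3.49 in NEJ654, 1.88 in NEJ638 and 1.18 in NEJ677), Pfkl, the liver phosphofructokinase (82.1, 59.0, 24.96, 22.9 and 18.96 in the same libraries), and Gpi1, the glucose phosphate isomerase (365.1, 274.0, 94.8, 91.0 and 127.1). These 3 shared the high side of Hk2 and Aldoa. The liver form of phosphofructokinase was therefore higher, not lower, in NEJ634 and NEJ687. In the gluconeogenesis list, Slc37a4, the glucose-6-phosphate transporter that feeds G6pc, was at 117.7 CPM in NEJ687, 87.3 in NEJ634, 54.9 in NEJ654, 53.4 in NEJ638 and 41.5 in NEJ677. Pcx, pyruvate carboxylase, was at 245.0 CPM in NEJ687, 167.6 in NEJ634, 166.2 in NEJ654, 138.4 in NEJ638 and 124.4 in NEJ677. The list thus did not move as 1 block, since these 2 genes were highest in the library where Pck1, Fbp1 and G6pc were lowest.

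Among regulators, Pdk4, a kinase that shuts off pyruvate dehydrogenase on fasting, was at 189.1 CPM in NEJ638, 72.9 in NEJ634, 54.3 in NEJ687, 4.44 in NEJ677 and 3.99 in NEJ654. Pfkfb3, which makes the activator of phosphofructokinase, was at 16.5 CPM in NEJ634, 11.7 in NEJ638, 11.6 in NEJ687, 1.997 in NEJ654 and 1.48 in NEJ677. NEJ638 also had the highest Pck1, and stood apart from NEJ654 and NEJ677 in these genes. Pdk2, a further kinase of the same family, was at 24.9 to 33.1 CPM in NEJ638, NEJ654 and NEJ677 and at 9.22 and 7.12 in NEJ634 and NEJ687. Of the transporters, Slc16a3, a lactate exporter, was at 20.2 CPM in NEJ634, 4.67 in NEJ687 and 0.752 or below (1 or 2 UMIs) in the other 3. The other named cells held more Slc16a3, at 58.1 CPM in NEJ634 and 59.5 in NEJ687. The part of their RNA in the hepatocyte-lineage-like levels of Slc16a3 was not tested. Slc2a1, the glucose transporter of most tissues, was between 2.07 CPM in NEJ677 and 12.7 in NEJ687, and Slc16a1, a lactate transporter, between 24.9 in NEJ677 and 94.4 in NEJ638.

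The hepatocyte-lineage-like cells came from 4 clusters, and most cells of NEJ634 and NEJ687 lay in another cluster than most cells of the other 3 libraries. Cluster 0, led by H19, Fabp6, Igf2 and Afp, held 5141 cells of NEJ634 and 241 of NEJ687. Cluster 6, led by Serpina3k, Mup3 and cytochrome P450 genes, held 317 cells of NEJ638, 332 of NEJ654, 144 of NEJ677 and 110 of NEJ634. Cluster 38, led by Akr1c6 and Aox3, held 788 cells of NEJ677, 238 of NEJ654 and 35 of NEJ687, with a median of 1.34% and 2.17% mitochondrial UMIs in NEJ677 and NEJ654 against 7.09% and 6.42% for their cluster 6. Cluster 24 held 54 cells of NEJ634 and had the neutrophil granule genes Ngp, Fcnb, Camp and Ltf among its leading genes. Pathway genes were left out of the clustering.

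Within NEJ634 the 2 large clusters differed in the direction of the libraries. Aldoa was at 254.5 CPM (216.8 to 296.9) in its 110 cells of cluster 6 and at 358.7 (350.9 to 366.7) in its 5141 cells of cluster 0, and Pkm at 36.1 (22.9 to 54.2) and 95.4 (91.4 to 99.5). Both were lower in cluster 6 beyond the interval, while the intervals of Hk2, at 14.1 (6.47 to 26.8) and 21.3 CPM (19.4 to 23.3), and of Ldha, at 1145 and 1208 CPM, overlapped. Pklr did not follow, with 4.71 CPM (3 UMIs, 0.972 to 13.8) in cluster 6 and 8.95 in cluster 0, so Pkm still held 88.5% of the pair (69.8 to 97.6) against 91.4%. Pck1 was at 1039 CPM in cluster 6 and 191.5 in cluster 0 of that library. The first lay within the 747.3 to 1696 CPM of NEJ638, NEJ654 and NEJ677, and the second near the 183.8 of NEJ687. Summed over those 110 cells, Cyp2e1 was at 345.6 CPM and Afp at 1406 CPM, while Cyp2e1 was 20.5 CPM in cluster 0. Such sums do not show whether single cells held both genes. G6pc and Fbp1 were also higher in cluster 6 of NEJ634, at 270.2 and 439.9 CPM against 123.1 and 208.8 in cluster 0.

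Clusters 6 and 38 divided the gluconeogenic genes within NEJ654 and NEJ677. G6pc was at 261.4 CPM (236.3 to 288.4) in cluster 6 of NEJ654 and at 43.9 (27.2 to 67.2) in its cluster 38, and at 395.5 (359.9 to 433.6) and 51.1 (42.2 to 61.4) in NEJ677. Fbp1 went the other way, with 856.4 and 2178 CPM in NEJ654 and 788.4 and 1790 in NEJ677, and so did Pck1, with 600.9 and 1214 CPM in NEJ654 and 674.9 and 870.6 in NEJ677. None of these intervals overlapped between the 2 clusters of a library. Cells of cluster 38 were also shallower, with medians of 905.5 and 1662 UMIs in NEJ654 and NEJ677 against 2172 and 6248 in cluster 6. The part of depth in this contrast was not tested. In NEJ687, the 35 cells of cluster 38 had a median of 591 UMIs, with Pck1 at 985.8 CPM (624.9 to 1479) and Fbp1 at 685.8 (392.0 to 1114) against 172.5 and 125.2 in its cluster 0, no G6pc UMI, and all 3 UMIs of the pyruvate kinase pair from Pkm. In cluster 38 of NEJ654 and NEJ677 G6pc was below the 123.1 and 111.6 CPM of cluster 0 in NEJ634 and NEJ687, and the order of G6pc over whole pools moved with the mix of clusters. Without cluster 38, a choice made after seeing the data, G6pc stood at 395.1 CPM in NEJ677 and 262.2 in NEJ654, and NEJ677 was highest in place of NEJ638. Fbp1 was then highest in NEJ654, at 854.9 CPM, in place of NEJ677. In cluster 6 alone, Fbp1 was at 788.4 CPM in NEJ677 (737.8 to 841.5) and 786.2 in NEJ638 (752.6 to 821.0), so the 2 overlapped. With levels averaged over cells instead of UMIs, G6pc was at 117.7 CPM in NEJ677 and 117.8 in NEJ634 and no longer divided the libraries. The Pkm share did not separate the 2 clusters, at 31.9% and 27.3% in NEJ654 and 4.55% and 7.09% in NEJ677 with overlapping intervals.

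**Figure D3:**
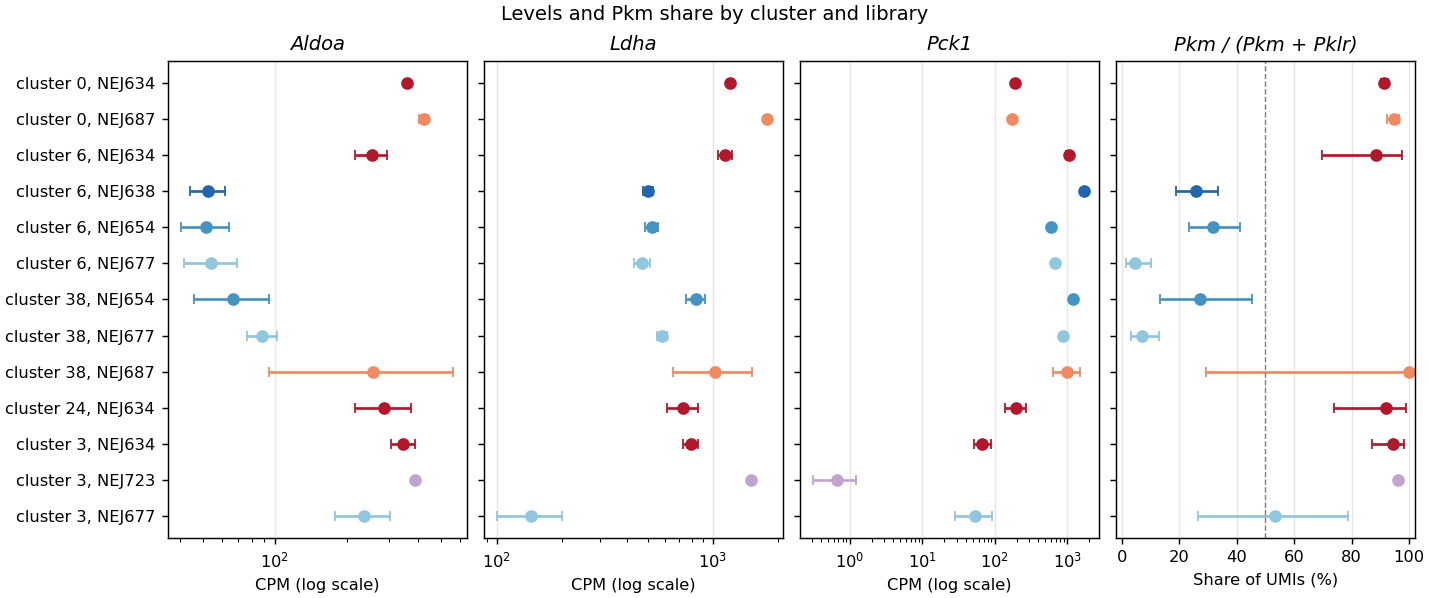
Levels of Aldoa, Ldha and Pck1 in CPM, on log axes with 95% Poisson intervals, and the Pkm share of Pkm and Pklr UMIs in percent with 95% Clopper-Pearson intervals, 1 point for each named cluster of these cells and library (colour) with at least 20 cells, with cluster 3 the cholangiocyte-like and the rest the hepatocyte-lineage-like cells. In NEJ634, cluster 6 lies below cluster 0 for Aldoa (254.5 against 358.7 CPM) and above it for Pck1 (1039 against 191.5 CPM).

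Cells with bile duct markers had lower gluconeogenic members than the hepatocyte-lineage-like cells, while their glycolytic members differed between libraries. This cholangiocyte-like cluster, led by Cldn7, Bex1, Cldn6, Epcam and Krt19, held 280 cells of NEJ723, 206 of NEJ634 and 20 of NEJ677. It was not purely biliary by its genes, since Afp was at 7057 CPM in NEJ634 and 2067 in NEJ723 but at 0 in NEJ677. The hepatocyte-lineage-like cells of NEJ634 held less Afp, at 2278 CPM. The study describes NEJ723 as dominated by a cluster with Afp, Igf2, Epcam and Krt19 that it presumes to be tumor cells. Whether the cells described here belong to that cluster was not tested. Pkm held 96.0% of the pyruvate kinase pair in NEJ723 (95.4 to 96.6) and 94.3% in NEJ634 (87.2 to 98.1). In NEJ677 the 20 cells had 53.3% Pkm (8 of 15 UMIs, 26.6 to 78.7), above the 5.91% of that library's hepatocyte-lineage-like cells, and no Hk2 UMI in 241857.

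Levels in the cholangiocyte-like cells of NEJ723 were 40.5 CPM for Hk2, 388.1 for Aldoa, 300.8 for Pkm and 1501 for Ldha. Pck1 was at 0.660 CPM there, G6pc at 2.51 and Fbp1 at 6.67, with a median of 47397 UMIs a cell. In NEJ634, at a median of 2781.5 UMIs, the same 3 genes were at 67.6, 24.9 and 34.4 CPM, below the 215.3, 126.4 and 214.5 of its hepatocyte-lineage-like cells. They were also at 74.3, 42.6 and 99.2 CPM in the promyelocyte-like cells of NEJ634, and at 106.0, 45.3 and 93.9 in its free RNA. The source of these UMIs in the cholangiocyte-like cells was not tested. The glycolytic members of NEJ634 were not all higher in these cells, with Hk2 at 35.6 CPM (24.02 to 50.8) against 21.0, Aldoa at 344.2 against 355.5, Pkm at 98.5 against 93.9 and Ldha at 791.5 against 1206. In NEJ677, Ldha was at 144.7 CPM against 546.5, Aldoa at 235.7 against 77.0, and Pck1, G6pc and Fbp1 at 53.8, 41.3 and 95.1 against 804.2, 168.0 and 1450. NEJ723 had Ldha higher in these cells than in any other class, beyond the interval.

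Across the other classes Hk2, Aldoa, Pkm and Ldha were broad and the gluconeogenic members narrow. Pklr was low in most other classes too, and was highest in the hepatocyte-lineage-like cells of NEJ638, NEJ654 and NEJ677. Pck1, G6pc and Fbp1 were each highest in the hepatocyte-lineage-like cells in all 5 libraries that had a pool of them, and G6pc and Fbp1 beyond the interval each time. Ldha was also highest there in 4 of the 5. Pkm was highest in neutrophil-like cells in 5 of 7 libraries, with a median of 570.8 CPM over libraries (413 to 710), beyond the interval of the next class in 1 of them, and lowest in erythroid-like cells (3.39 to 10.8). Hk2 was at 37.6 to 183.4 CPM in macrophage-like cells and at 66.8 to 187 in basophil/mast-like cells, above the 26.5 CPM of NEJ687's hepatocyte-lineage-like cells. Aldoa ranged from 2.23 to 64.6 CPM in erythroid-like cells and from 322.2 to 502.5 in neutrophil-like cells. Pklr, whose red cell form is made from the same gene, was at 0.566 to 15.1 CPM in erythroid-like cells.

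**Figure D4:**
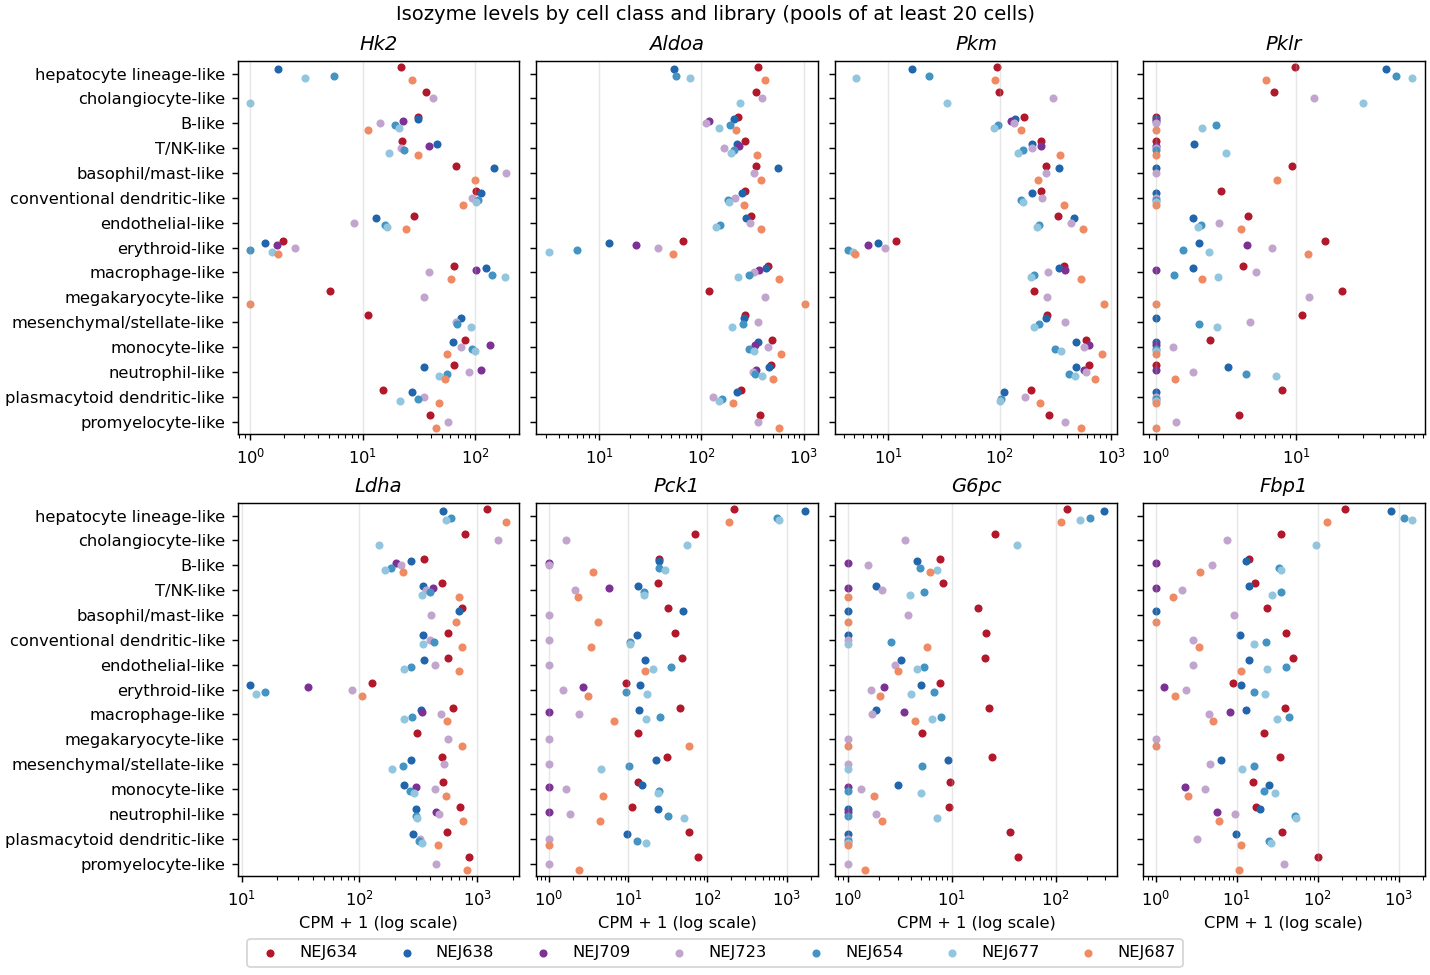
Level as CPM + 1, on a log axis, of the 8 genes by cell class, 1 point for each library with at least 20 cells of that class. Pck1, Fbp1 and G6pc are highest in hepatocyte-lineage-like cells, while Pkm is highest in neutrophil-like cells in 5 of 7 libraries.

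Set against all other named cells of the same library, the gluconeogenic members lay higher, while the glycolytic members did not move together. Pck1, G6pc and Fbp1 were at least 2-fold higher in the hepatocyte-lineage-like cells of all 5 libraries, Pkm at least 2-fold lower in all 5, and Hk2 at least 2-fold lower in 4. In NEJ687, Hk2 was 1.33 times the level of the other cells (26.5 against 19.9 CPM). Those other cells included 3631 erythroid-like cells, with Hk2 at 0.777 CPM, Aldoa at 52.1 and Ldha at 104.4, against 278 such cells in NEJ634. Among the 13 named classes of NEJ687, the hepatocyte-lineage-like cells ranked 9 for Hk2, 6 for Aldoa and 1 for Ldha. The part of this mix in the ratios was not tested. Aldoa was 1.82 times the other cells in NEJ687 and 1.003 times in NEJ634, against 0.231 in NEJ638, 0.296 in NEJ654 and 0.511 in NEJ677. Ldha was 5.36 times the other cells in NEJ687, 2.60 in NEJ677, 2.33 in NEJ654, 2.002 in NEJ634 and 1.94 in NEJ638. Pklr was 55.3 times the other cells in NEJ638, 64.8 in NEJ654 and 40.2 in NEJ677. It was under 10 CPM in both pools of NEJ634 and NEJ687, at 2.13 and 0.721 times the other cells. Pck1 was 113-fold higher in NEJ638, 63.6-fold in NEJ687, 41.5-fold in NEJ677 and 32.8-fold in NEJ654, but 5.12-fold in NEJ634. The other cells of NEJ634 held 42.1 CPM of Pck1, against 15.1 in NEJ638 and 2.89 in NEJ687.

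In counts, 4 of 7 tested members were at least 2-fold higher in NEJ634, where 14.2% of all tested genes were, 4 of 8 in NEJ638 (22.9%), 5 of 8 in NEJ654 (18.9%), 5 of 8 in NEJ677 (21.3%) and 4 of 7 in NEJ687 (37.5%). Lower by as much were 2 of 7 members in NEJ634 (21.2% of all genes), 3 of 8 in NEJ638 (36.3%) and 3 of 8 in NEJ654 (38.7%). In NEJ677 and NEJ687 they were 2 of 8 (42.4%) and 1 of 7 (21.9%). The lower counts do not set the members apart from all genes. Over the pathway lists, 15 of 39 tested genes were higher in NEJ634, 21 of 39 in NEJ638, 20 of 36 in NEJ654, 20 of 36 in NEJ677 and 22 of 36 in NEJ687, and 9, 12, 12, 12 and 8 were lower. The gluconeogenesis list gave the same 5 higher genes in every library, Pcx, Pck1, Fbp1, G6pc and Slc37a4. In glycolysis, Tpi1, Pgk1 and Eno1 were higher in all 5 libraries and Hk1, Hk3 and Pkm lower in all 5. The median log2 difference of the pathway genes was 0.75 in NEJ634, 1.36 in NEJ638, 1.37 in NEJ654, 1.63 in NEJ677 and 1.68 in NEJ687, beside -0.08, -0.41, -0.56, -0.66 and 0.49 for all genes tested.

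**Figure D5:**
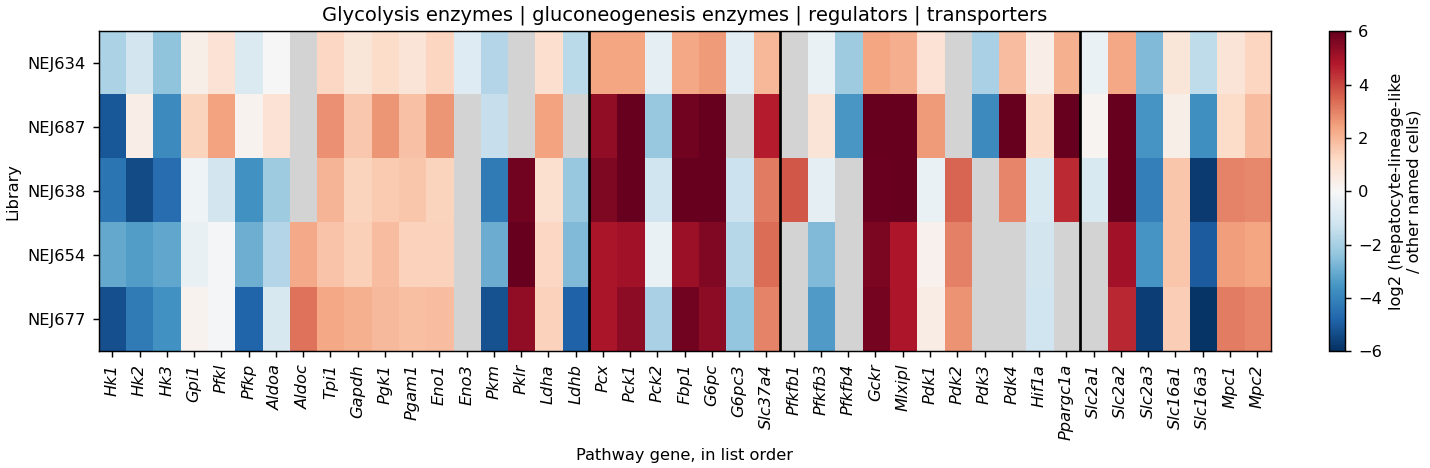
Log2 of the level in hepatocyte-lineage-like cells over the level in the other named cells of the same library, for pathway genes (columns) in 5 libraries (rows), with black lines between the 4 lists. Colour runs from lower to higher and saturates at the ends of its scale, and grey marks genes under 10 CPM in both pools; Pcx, Pck1, Fbp1, G6pc and Slc37a4 are higher in every library and Hk1, Hk3 and Pkm lower in every library.

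Shares of cells with a UMI divided the libraries the same way for Ldha, Pck1, Aldoa and Pkm. With cells thinned to 500 UMIs, Ldha was found in 45.4% of the hepatocyte-lineage-like cells of NEJ687 and 42.2% of NEJ634, and in 21.2 to 23.7% of the other 3 libraries. Pck1 was found in 57.0% in NEJ638, 33.1% in NEJ677, 26.4% in NEJ654, 12.1% in NEJ687 and 8.65% in NEJ634, while T/NK-like cells, which should lack it, gave at most 3.62% (NEJ634, where the median depths before thinning were 4325 and 2958 UMIs). G6pc, at 5.76 to 10.2% in NEJ638, NEJ654 and NEJ677 and at 5.97% and 7.5% in NEJ634 and NEJ687, did not divide the libraries at this depth. Aldoa was found in 17.9% and 16.5% in NEJ687 and NEJ634 and in 3.58 to 4.502% elsewhere. Pkm was found in 6.07% and 5.50% in NEJ687 and NEJ634 and in 0.536 to 1.57% elsewhere, below the 6.57 to 13.1% of T/NK-like cells, which express it. Hk2 at this depth was in 1.07% or fewer cells, below T/NK-like cells in each library, so no share of Hk2-positive cells can be read. Unthinned, Ldha was found in 92.2% of NEJ634 and 83.9% of NEJ638 at median depths of 2958 and 8516 UMIs.

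Over 83 profiles, each a cell class of 1 library with at least 20 cells, the genes with the most similar pattern differed by role (Pearson's r of log2(CPM + 10), among 9136 genes outside the pathway lists, given as a description since profiles of a library share its depth and free RNA). Pck1 was closest to Rgn (0.96) and Uox (0.94), G6pc to Bhmt2 (0.96) and Pbld1 (0.94), and Fbp1 to Uox (0.94) and Bhmt (0.94), enzymes of hepatocyte metabolism for the most part. Aldoa was closest to Actg1 (0.90) and Pfn1 (0.87), and Pkm to Wdr1 (0.87) and Cotl1 (0.87), genes of the actin cytoskeleton. Hk2 was closest to Fam129a (0.80) and Adap1 (0.79), Ldha to Prelid1 (0.86) and Slc25a3 (0.85), and Pklr to Slc26a1 (0.84) and 1300017J02Rik (0.84). Among the members, Aldoa and Pkm had an r of 0.88, Pck1 and Fbp1 0.89, Pck1 and G6pc 0.89, and Pklr and Pkm -0.49.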

How the data were processed

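The 7 10x Genomics libraries of mouse liver were analysed from the deposited unfiltered UMI counts, which the authors made with Cell Ranger (version 6.0 in the submitters' notes, 4 in the matrix headers), with the genome build not given in the sources used here. The series' design text speaks of nuclei and the labels of cells. Barcodes were called by a knee rule plus a test against ambient RNA, and 81510 cells passed a floor of 500 UMIs and a ceiling of 20% mitochondrial UMIs. Scrublet's own threshold marked at most 0.0631% of cells in a library, so the highest scores were removed at 0.8% per 1000 cells (8870 cells). Cells were clustered with scanpy 1.11.5 (2000 variable genes without the pathway genes, 40 components, 15 neighbours, Leiden resolution 1), and 32 of 40 clusters were named "X-like" from fixed marker lists. Limits for naming were set with the data seen. UMIs were summed per class and library and divided by the total (CPM), with exact Poisson intervals; ranges of at least 4-fold and differences of at least 2-fold were counted among genes at 10 CPM or more. Pools needed 20 cells. Levels of 3' UMI counts are not scaled by gene length. Processed pseudogenes of Aldoa and Ldha may take some reads. The scripts were tested on simulated data. Some genes of the pathway lists are not reported here, and no count includes them. Genes named are the 8 members, further isozymes of their families, the 3 further genes of each pathway list with the widest range (2 in the gluconeogenesis list, where no more reached 10 CPM), and the 2 genes most like each member; Tpi1, Pgk1 and Eno1 were named after their values were seen, as were Fn1 and the genes that lead clusters. Promoters are RefSeq's (GRCm38.p6) and gene positions GENCODE's (GRCm38). Members and lists were chosen with earlier results of these data known.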

Additional observations from a re-analysis of the deposited data

How the results depend on the processing

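Values were recomputed under alternatives of cell calling, depth, mitochondrial and doublet limits, clustering, cell choice, totals, weighting, ambient RNA and shared barcodes. Leaving out cluster 38, adding clusters 25 and 31 or dropping Fn1 from the monocyte markers was chosen after seeing the data, as was leaving out each library. No doublet removal gave 3 libraries with Pkm over Pklr instead of 2, with NEJ709 added (47 cells), and moved the Pkm share from 5.91% to 11.7% in NEJ677 and from 26.5% to 33.9% in NEJ638; the cause was not tested. Members with a 4-fold range numbered 6 under every alternative and without any 1 library (6 to 6). Pathway genes at least 2-fold higher numbered 13 to 16 in NEJ634, 21 in NEJ638, 20 to 21 in NEJ654, 19 to 20 in NEJ677 and 19 to 22 in NEJ687. Averaged over cells, Pkm held 45.6% in NEJ654 and 11.02% in NEJ677. Of the recomputed levels and Pkm shares, 466 stayed within the interval of the reported value and 119 did not, 28 of these with levels averaged over cells and 25 with cells set by their share of marker UMIs. The latter choice kept 107 cells in NEJ634, 159 in NEJ677, 304 in NEJ654, 314 in NEJ638 and 27 in NEJ687, and moved Pck1 in NEJ634 to 556.7 CPM and G6pc to 229.2 there and to 367.8 in NEJ677. That choice also lowered Pkm from 93.9 to 61.0 CPM in NEJ634 and from 90.8 to 38.5 in NEJ687, and Hk2 from 21.0 to 13.4 in NEJ634. A pseudocount of 1 replaced several genes most like a member, among them both of Hk2 (Gmip and Pmaip1). Depth limits Hk2 most, with 2 to 9 UMIs in 3 libraries. No paired analysis was possible because the labels give no groups and no replicate numbers.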
